A study of Oncorhynchus mykiss with 27 samples.

Results

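The response of rainbow trout testis to follicle-stimulating hormone (Fsh) alone was measured by setting 6 arrays of explants kept for 96 h with Fsh (Fsh) against 6 arrays of explants kept for the same time without any substance (Ctrl), with no trilostane in either group. The 12 arrays were taken by their titles from the 27 of the series. Members are the clones spotted on these arrays once water and vector control rows are left out, 9024 in all, of which 4565 were tested and 102 carry a gene name.

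Testes came from an all-male population of rainbow trout, and only fish with a low testis weight for their body weight were kept. The testes were cut into small pieces, pooled over fish, and spread at random on membrane inserts in wells of culture medium. Ctrl wells received 0 ng/mL and Fsh wells 500 ng/mL of purified Fsh, medium and hormone were renewed once, and RNA was taken at 96 h. Each replicate is a well of the same pool, so that the 6 arrays of a group measure the spread between wells and not between fish, and p-values refer to that spread alone. The 12 other cultured arrays, with trilostane at 10 µg/mL (Tri) or with Fsh and trilostane (Fsh+Tri), entered the estimate of the spread. The tissue is a mixture of germ and somatic cells, in which fewer cells of a type and less RNA per cell cannot be told apart. The ages of the fish are not given in the sources used here.

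Fsh is a pituitary hormone whose receptor in the testis is borne mainly by Sertoli cells, and in fish also by steroid-producing Leydig cells. Through the receptor it raises cyclic AMP, stimulates steroid production, and acts on the paracrine factors by which Sertoli cells support the multiplication and differentiation of spermatogonia. Inhibin, anti-Müllerian hormone, junction proteins and secreted proteases are among the products of Sertoli cells that Fsh is known to regulate in vertebrates.

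Values are the log2 signals of cDNA spots, so that a difference of 1 is a doubling of the steady-state level, and they compare a clone between arrays but not one clone with another. The 12 arrays held 8184 to 8972 values each, with medians between 6.40 and 6.41. The reference gene *rps15*, a ribosomal protein, lay from 10.61 to 11.41 on the Ctrl arrays (median 11.09) and from 10.78 to 11.32 on the Fsh arrays (median 11.12), and its difference was 0.06 ± 0.14 (adjusted p = 0.871). Ctrl replicate 4 (Ctrl 4) stood apart, with -36.0 on the first principal component where the other 11 arrays lay between -3.80 and 6.79, and with a median correlation to its own group of 0.865 where the others had 0.917 to 0.951. Of 4520 clones with a value on every Ctrl array, 32.0% were lowest and 24.8% highest on Ctrl 4. The labels give all 6 Ctrl arrays and Fsh 2, 3 and 5 as testis maturation stage I-II, and Fsh 1, 4 and 6 as stage III, whereas the methods describe wells that mixed explants of both stages.

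Few of the clones tested passed the adjusted threshold, which does not show that few transcripts moved. More clones were lower than higher at an unadjusted p under 0.05, while the calls over all 12 arrays were mostly upward. At an adjusted p under 0.05 from limma, 82 of the 4565 clones were higher with Fsh (1.8%) and 17 were lower (0.372%), while 338 and 389 had an unadjusted p under 0.05 in these directions. Differences of the clones called higher had a median of 0.76 and reached 3.06, those of the clones called lower had a median of -0.62 and reached -0.96, and over all clones tested the median was -0.04. A doubling or more was measured for 13 of the clones called higher and a halving for 0 of those called lower. All 6 Fsh arrays lay above all 6 Ctrl arrays for 48 clones (1.05% of those tested), 43 of them among the 82, and below them for 18 clones (0.394%), 9 of them among the 17, so that 1.45% did not overlap in either direction. A rise of 1.5-fold or more was measured for 2.78% of all clones and for 77 of the 82, and a fall of that size for 1.16% of all and for 11 of the 17. Without Ctrl 4 the counts became 68 higher (1.49%) and 56 lower (1.23%). When Ctrl and Fsh were fitted without the arrays that held trilostane, 35 clones were higher and 2 lower.

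**Figure D1:**
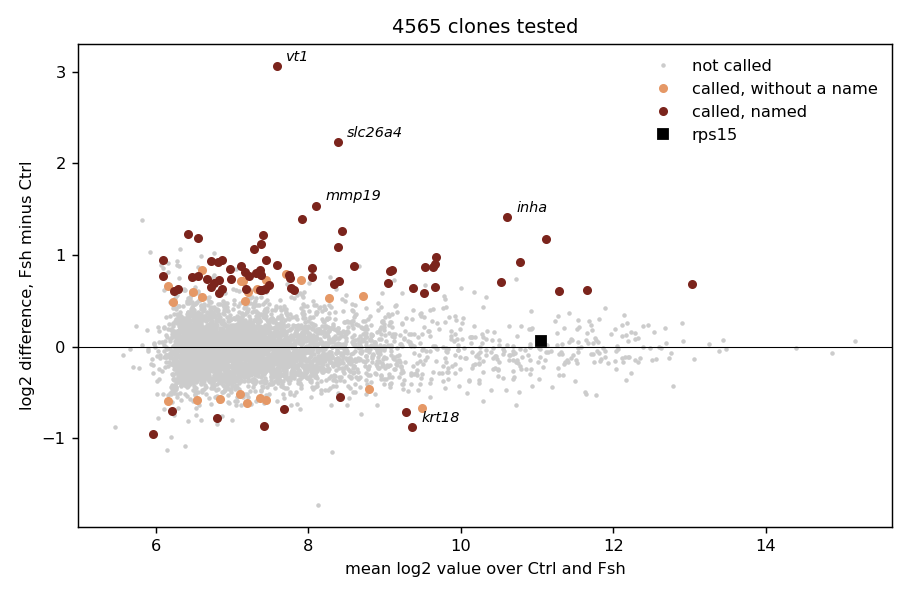
Log2 difference between Fsh and Ctrl (vertical axis) against the mean log2 value over both groups (horizontal axis) for the 4565 clones tested. Clones called at an adjusted p under 0.05 are dark red where named and orange where not, the square is *rps15*, and the points for *vt1* at 3.06 and *slc26a4* at 2.23 lie above all others.

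Of the 102 named clones, 67 were higher, 8 were lower and 27 were not called, and all 102 passed the filter on level. That filter asked for 1 treatment mean at or above 6.42, so that a clone could enter through Fsh alone. Among others, *it1*, *dmd* and *nr2f2* did so, with means of 6.48, 6.57 and 6.61 on Fsh and 5.71, 5.63 and 5.97 on Ctrl. For such clones the filter itself selected a high level on Fsh, and their rise is no independent evidence. The study chose these clones for a response to Fsh on the same arrays, with or without trilostane, so that neither this count nor its direction is independent evidence, and nothing is read from its excess over the 1.8% and 0.372% of all clones. The same limit and the same shares hold for the counts and directions of each group of named clones below. They describe the members and do not show that a group responds. Among the 27 named clones not called, 11 differences were above 0 and 16 below, between -0.63 and 0.63. The smallest difference called lower among named clones was -0.55, for *sl*. The other 15 clones called higher and 9 called lower have no name here. Of these, clone tcan0001.o.05 rose most, by 0.83 (adjusted p = 0.0402), followed by tcay0012.e.18 with 0.79 (adjusted p = 0.0448), and 1rt85p10_d_h05 with -0.67 (adjusted p = 0.0334) fell most.

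Peptide hormones and growth factors held the largest response of all, and 7 of their 11 clones were higher, 1 was lower and 3 were not called. Values of *vt1*, the precursor of vasotocin, the fish counterpart of vasopressin, ranged from 5.89 to 6.25 on the Ctrl arrays (median 6.04) and from 8.72 to 9.50 on the Fsh arrays (median 9.09). The lowest Fsh array was far above the highest Ctrl array, and the level was 8.36-fold higher, a difference of 3.06 ± 0.15 (± standard error throughout, adjusted p = 2.24e-15). The related precursor *it1*, of isotocin, the fish counterpart of oxytocin, ranged from 5.15 to 6.28 on the Ctrl arrays (median 5.70) and from 6.12 to 7.11 on the Fsh arrays (median 6.38). Here the groups touched, as Ctrl 1 stood above Fsh 3 and Fsh 6, and the difference was 0.78 ± 0.18 (adjusted p = 0.0167). Protachykinin *tac1*, from which substance P is cut, ranged from 5.40 to 6.41 on the Ctrl arrays (median 5.73) and from 6.69 to 7.49 on the Fsh arrays (median 6.97), with every Fsh array above every Ctrl array and a difference of 1.23 ± 0.16 (adjusted p = 5.86e-06).

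Of the subunits of inhibin and activin and the hormone *amh*, all of the transforming growth factor beta family, 1 of 3 was called. Values of *inha*, the alpha subunit of inhibin, ranged from 7.98 to 10.51 on the Ctrl arrays (median 10.25) and from 10.999 to 11.64 on the Fsh arrays (median 11.28). All Fsh arrays were above all Ctrl arrays, and Ctrl 4, at 7.98, lay far below the other Ctrl arrays, which began at 10.03. The difference was 1.41 ± 0.27 (adjusted p = 0.00229), and 1.03 (adjusted p = 0.000219) without Ctrl 4. The beta A subunit *inhba*, shared by activin and inhibin, ranged from 4.98 to 6.74 on the Ctrl arrays (median 6.05) and from 5.54 to 6.45 on the Fsh arrays (median 5.82), the groups overlapped and the difference was -0.13 ± 0.19 (adjusted p = 0.785), and -0.34 (adjusted p = 0.259) without Ctrl 4. Its means on Ctrl (6.01) and Fsh (5.89) lay below the 6.42 of the filter on level. It passed that filter through Tri (6.50) and Fsh+Tri (6.63). Anti-Müllerian hormone, *amh*, which Sertoli cells secrete and which in fish restrains spermatogonia, ranged from 6.94 to 8.80 on the Ctrl arrays (median 8.23) and from 7.44 to 8.11 on the Fsh arrays (median 7.94), again with overlap. Its lowest Ctrl array was Ctrl 4, and the difference was -0.26 ± 0.21 (adjusted p = 0.57), and -0.50 (adjusted p = 0.092) without it.

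Among the other secreted factors, the midkine-related growth factor *mdka* ranged from 8.49 to 9.85 on the Ctrl arrays (median 8.94) and from 9.48 to 10.34 on the Fsh arrays (median 10.06). Its highest values were on Fsh arrays but the groups overlapped, with a difference of 0.87 ± 0.20 (adjusted p = 0.0139) that lost its call without Ctrl 1 (0.75, adjusted p = 0.0565). Here and below, arrays named after "without" were left out singly. The angiopoietin-related *angptl7* ranged from 9.0 to 9.37 on the Ctrl arrays (median 9.24) and from 9.73 to 9.90 on the Fsh arrays (median 9.81), a narrow spread with no overlap, and differed by 0.59 ± 0.12 (adjusted p = 0.00408). The matricellular protein *wisp1*, a target of WNT signalling in mammals, ranged from 6.75 to 7.59 on the Ctrl arrays (median 7.12) and from 7.40 to 8.64 on the Fsh arrays (median 7.75), with its highest value on Fsh 1. Its difference of 0.68 ± 0.17 (adjusted p = 0.0305) lost its call without Ctrl 1, Ctrl 2, Ctrl 4, Fsh 1 or Fsh 6 (difference from 0.52 to 0.66, adjusted p from 0.0555 to 0.0747). The activator of hepatocyte growth factor, *hgfa*, had a difference of 0.63 ± 0.19 (adjusted p = 0.0885) and was called without Fsh 3 (0.73, adjusted p = 0.0448). Without Ctrl 4, its lowest Ctrl array, it was 0.44 (adjusted p = 0.15). The only member of the group called lower was *sl*, somatolactin, a hormone of the growth hormone and prolactin family known from the fish pituitary. It ranged from 8.38 to 8.96 on the Ctrl arrays (median 8.64) and from 7.86 to 8.29 on the Fsh arrays (median 8.18). The groups did not overlap, and the difference was -0.55 ± 0.12 (adjusted p = 0.0112).

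**Figure D2:**
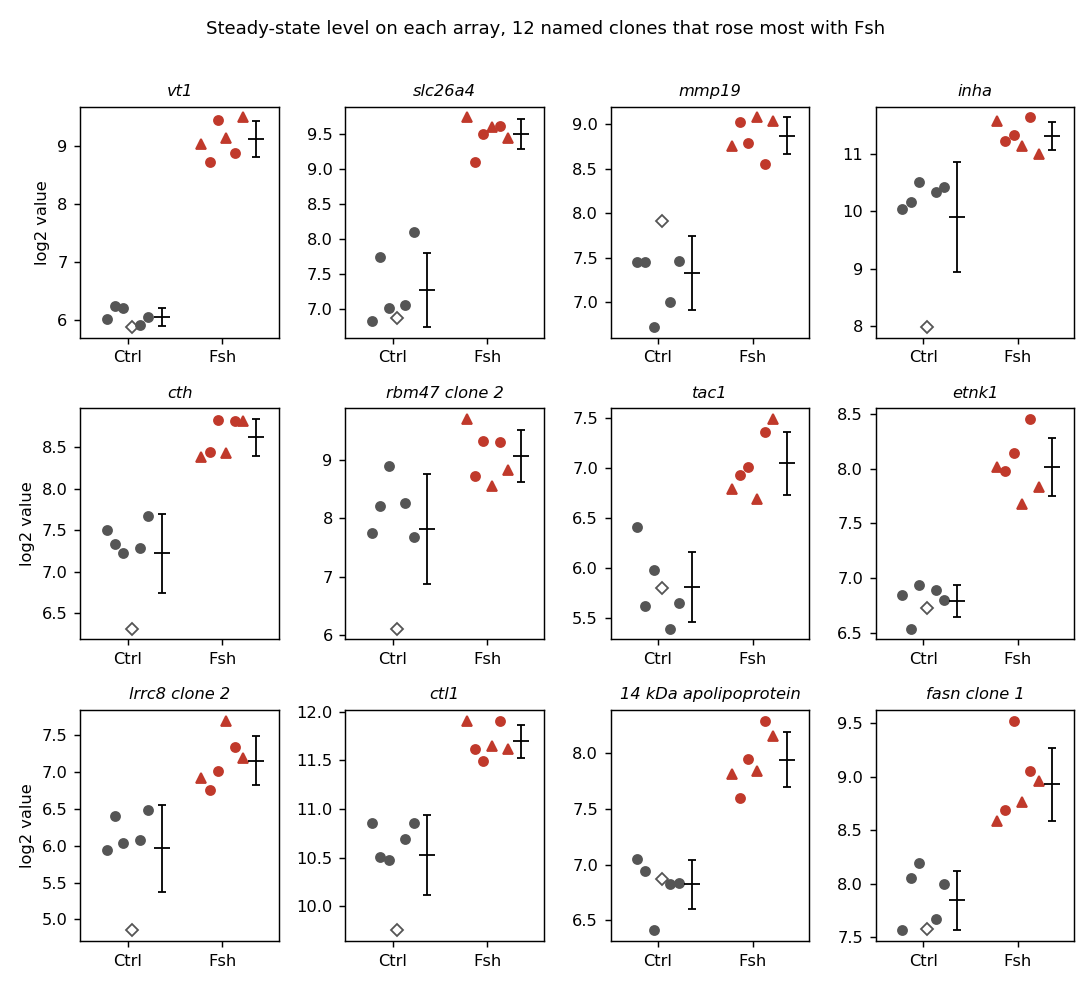
Log2 value on each array for the 12 named clones with the largest rise, 1 panel each with its own vertical axis, for 6 Ctrl arrays (grey) and 6 Fsh arrays (red). Triangles are arrays labelled stage III, the open diamond is Ctrl 4, and bars are mean and SD (n = 6). In 11 panels no array of the groups overlaps, and in that of *rbm47* clone 2 Ctrl 3 reaches into the range of Fsh.

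Transcription factors followed with 6 of 11 clones higher, 1 lower and 4 not called. The CCAAT/enhancer-binding protein delta, *cebpd*, a leucine zipper factor, was spotted as 2 clones. Values of its clone 1 ranged from 6.05 to 7.04 on the Ctrl arrays (median 6.91) and from 7.51 to 8.14 on the Fsh arrays (median 7.83), and of clone 2 from 6.39 to 7.33 on the Ctrl arrays (median 7.0) and from 7.63 to 8.0 on the Fsh arrays (median 7.73). Neither clone overlapped between the groups, Ctrl 4 was the lowest array of both, and the differences were 1.06 ± 0.16 (adjusted p = 9.23e-05) and 0.83 ± 0.15 (adjusted p = 0.000822). Its relative *cebpb* differed by 0.98 ± 0.22 (adjusted p = 0.0121), with an overlap through Ctrl 3, and lost its call without Ctrl 1 (0.86, adjusted p = 0.0515). The factor *dmrt1*, which directs testis differentiation in vertebrates, ranged from 6.50 to 7.30 on the Ctrl arrays (median 6.93) and from 7.39 to 8.10 on the Fsh arrays (median 7.68). Every Fsh array was above every Ctrl array, and the difference was 0.80 ± 0.15 (adjusted p = 0.00153). The Fos-related *fosl2*, a partner of Jun, likewise showed no overlap and differed by 0.74 ± 0.15 (adjusted p = 0.00303). The orphan receptor *nr2f2* varied little on Ctrl, ranging from 5.91 to 6.12 on the Ctrl arrays (median 5.95) and from 6.19 to 7.12 on the Fsh arrays (median 6.57), and its difference of 0.63 ± 0.16 (adjusted p = 0.0327) lost its call without Ctrl 1, Ctrl 5, Ctrl 6, Fsh 3, Fsh 5 or Fsh 6 (difference from 0.53 to 0.62, adjusted p from 0.0571 to 0.0984). All Ctrl values of *nr2f2* lay below the 6.42 of the filter on level. Its call was also lost with no filter on level, on the Ctrl and Fsh arrays alone and on arrays labelled stage I-II alone.

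The 1 transcription factor called lower was *nfkb1*, the p105 subunit of NF-kappa-B. It ranged from 7.39 to 8.87 on the Ctrl arrays (median 7.94) and from 7.05 to 7.83 on the Fsh arrays (median 7.28). The groups overlapped, and the difference of -0.68 ± 0.18 (adjusted p = 0.0441) lost its call without Ctrl 1, Ctrl 2, Ctrl 3, Ctrl 5, Ctrl 6, Fsh 2, Fsh 3, Fsh 4, Fsh 5 or Fsh 6 (difference from -0.51 to -0.72, adjusted p from 0.0504 to 0.106). Of the 4 not called, *e2f4* stood at 0.05, *purg* at -0.02, *zfp658* at -0.11 and a KRAB zinc finger clone at -0.16.

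Genes of sterol synthesis and transport were higher in 4 of 6 clones, and 2 were not called. A clone for a 14 kDa apolipoprotein, a lipid carrier, ranged from 6.41 to 7.05 on the Ctrl arrays (median 6.85) and from 7.60 to 8.29 on the Fsh arrays (median 7.89). No array overlapped, and the difference was 1.12 ± 0.13 (adjusted p = 2.65e-06). The cholesterol efflux transporter *abca1* ranged from 6.51 to 7.13 on the Ctrl arrays (median 6.85) and from 7.46 to 7.77 on the Fsh arrays (median 7.59) and differed by 0.77 ± 0.12 (adjusted p = 0.000192), also without overlap. The farnesyl pyrophosphate synthetase *fdps*, which supplies the precursor of squalene, ranged from 7.96 to 8.96 on the Ctrl arrays (median 8.84) and from 9.21 to 9.70 on the Fsh arrays (median 9.33). It was higher on all Fsh arrays than on any Ctrl array, by 0.70 ± 0.16 (adjusted p = 0.0145). The steroidogenic enzyme *hsd3b1*, the target of trilostane and a marker of steroid-producing cells, ranged from 6.49 to 7.18 on the Ctrl arrays (median 7.06) and from 7.13 to 7.83 on the Fsh arrays (median 7.39), the groups overlapped and its difference was 0.46 ± 0.14 (adjusted p = 0.0903). Cholesterol 24-hydroxylase, *cyp46a1*, had 0.54 ± 0.18 (adjusted p = 0.119).

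Genes of fatty acid and phospholipid metabolism were higher in 5 of 7 clones, with 2 not called. Ethanolamine kinase, *etnk1*, which starts the making of phosphatidylethanolamine, ranged from 6.54 to 6.94 on the Ctrl arrays (median 6.83) and from 7.68 to 8.45 on the Fsh arrays (median 7.99). The groups were wide apart, with a difference of 1.22 ± 0.19 (adjusted p = 0.000192). Fatty acid synthase, *fasn*, was spotted as 2 clones, of which clone 1 ranged from 7.56 to 8.20 on the Ctrl arrays (median 7.84) and from 8.58 to 9.53 on the Fsh arrays (median 8.86) and clone 2 from 6.0 to 6.84 on the Ctrl arrays (median 6.45) and from 6.80 to 7.22 on the Fsh arrays (median 7.10). Clone 1 did not overlap and differed by 1.08 ± 0.16 (adjusted p = 0.000146). Clone 2 overlapped, differed by 0.65 ± 0.17 (adjusted p = 0.0332), and lost its call without Ctrl 1, Ctrl 5, Fsh 3, Fsh 4, Fsh 5 or Fsh 6 (difference from 0.57 to 0.65, adjusted p from 0.0541 to 0.0912). A clone similar to acyl-CoA thioesterase 11 did not overlap, was highest on Fsh 3 at 7.82 where the next Fsh array had 7.08, and differed by 0.76 ± 0.16 (adjusted p = 0.00754). The cytochrome *cyp2m1* differed by 0.87 ± 0.23 (adjusted p = 0.0402) and lost its call without Ctrl 1, Ctrl 4, Fsh 1, Fsh 2, Fsh 3, Fsh 4, Fsh 5 or Fsh 6 (difference from 0.62 to 0.91, adjusted p from 0.0521 to 0.114). The acyltransferase *gpam*, the first enzyme of glycerolipid synthesis, went the other way at -0.05 ± 0.13 (adjusted p = 0.893).

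All 4 clones of amino acid and polyamine metabolism were higher. Cystathionine gamma-lyase, *cth*, and cystathionine beta-synthase, *cbs*, are the enzymes that turn homocysteine into cysteine. Values of *cth* ranged from 6.31 to 7.68 on the Ctrl arrays (median 7.31) and from 8.39 to 8.83 on the Fsh arrays (median 8.63), with no overlap, a difference of 1.40 ± 0.17 (adjusted p = 2.65e-06), and Ctrl 4 lowest at 6.31. Values of *cbs* ranged from 5.64 to 7.05 on the Ctrl arrays (median 6.38) and from 7.01 to 7.45 on the Fsh arrays (median 7.40), with Ctrl 3 just inside the range of Fsh and a difference of 0.94 ± 0.18 (adjusted p = 0.00229). The cationic amino acid transporter *slc7a3*, which carries arginine, lysine and ornithine, did not overlap and differed by 0.74 ± 0.14 (adjusted p = 0.00229). Ornithine decarboxylase, *odc1*, the first enzyme of polyamine synthesis, overlapped, differed by 0.62 ± 0.17 (adjusted p = 0.0445), and lost its call without Ctrl 2, Ctrl 3, Ctrl 5, Ctrl 6, Fsh 2, Fsh 3, Fsh 4 or Fsh 5 (difference from 0.52 to 0.65, adjusted p from 0.0524 to 0.118).

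Of 4 clones for enzymes of sugars and nucleotides 3 were higher and 1 was not called. Nucleoside diphosphate kinase *ndpkz3* ranged from 7.20 to 7.83 on the Ctrl arrays (median 7.73) and from 8.10 to 8.81 on the Fsh arrays (median 8.54), with no overlap and a difference of 0.86 ± 0.14 (adjusted p = 0.000192). Hexokinase *hk1*, which starts glycolysis, did not overlap and differed by 0.63 ± 0.14 (adjusted p = 0.00925), while the testis-specific glyceraldehyde-3-phosphate dehydrogenase *gapdhs* overlapped, differed by 0.61 ± 0.15 (adjusted p = 0.0184) and lost its call without Fsh 5 (0.56, adjusted p = 0.0627) and on spot intensity not divided by the vector signal (0.39, adjusted p = 0.183). The pentose phosphate enzyme *pgd* had 0.52 ± 0.18 (adjusted p = 0.139).

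Membrane transport and signalling held the second largest response, and 4 of 8 clones were higher and 4 were not called. Values of *slc26a4*, the anion exchanger known in mammals as pendrin, ranged from 6.83 to 8.11 on the Ctrl arrays (median 7.04) and from 9.11 to 9.75 on the Fsh arrays (median 9.55). All Fsh arrays were above all Ctrl arrays, the level was 4.69-fold higher, and the difference was 2.23 ± 0.22 (adjusted p = 1.15e-07). The gene *lrrc8*, whose mammalian relatives form volume-regulated anion channels, was spotted as 2 clones, and clone 2 ranged from 4.85 to 6.48 on the Ctrl arrays (median 6.05) and from 6.76 to 7.70 on the Fsh arrays (median 7.10) and clone 1 from 5.78 to 6.77 on the Ctrl arrays (median 6.63) and from 7.04 to 7.43 on the Fsh arrays (median 7.18). Neither overlapped, Ctrl 4 was lowest on both, and the differences were 1.19 ± 0.21 (adjusted p = 0.00123) and 0.73 ± 0.14 (adjusted p = 0.00229). The clone named *slc25a5*, a mitochondrial carrier that the study's list also annotates to another member of the same family, did not overlap and differed by 0.60 ± 0.12 (adjusted p = 0.00229). The kinase *akt*, which acts downstream of growth factor receptors, lay the other way at -0.34 ± 0.15 (adjusted p = 0.241).

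Proteases, their inhibitors and lysosomal hydrolases were higher in 9 of 9 clones. The matrix metalloproteinase *mmp19* ranged from 6.72 to 7.91 on the Ctrl arrays (median 7.45) and from 8.55 to 9.08 on the Fsh arrays (median 8.90), with no overlap and a difference of 1.54 ± 0.18 (adjusted p = 1.36e-06). On this clone Ctrl 4 was the highest Ctrl array, and the difference was 1.65 (adjusted p = 2.68e-07) without it. The metalloproteinase inhibitor *timp2* rose too, by 0.69 ± 0.15 (adjusted p = 0.00997), with an overlap through Ctrl 1. Plasminogen, *plg*, the precursor of the protease plasmin, ranged from 6.17 to 7.21 on the Ctrl arrays (median 6.74) and from 7.43 to 8.10 on the Fsh arrays (median 7.48). An inhibitor of plasmin and other serine proteases, *tfpi2*, ranged from 6.08 to 6.58 on the Ctrl arrays (median 6.34) and from 7.03 to 7.41 on the Fsh arrays (median 7.31). Neither overlapped, and the differences were 0.82 ± 0.16 (adjusted p = 0.00229) and 0.92 ± 0.14 (adjusted p = 0.000192). Cathepsin L, *ctl1*, a lysosomal protease that Sertoli cells also secrete in mammals, ranged from 9.75 to 10.86 on the Ctrl arrays (median 10.60) and from 11.49 to 11.91 on the Fsh arrays (median 11.63). No array overlapped, and the difference was 1.17 ± 0.18 (adjusted p = 0.000175). The cathepsin S clones *ctss* and *ctssb1* overlapped and were near the threshold, with 0.62 ± 0.17 (adjusted p = 0.0437) and 0.77 ± 0.21 (adjusted p = 0.042), and *ctss* lost its call without Ctrl 1, Ctrl 3, Ctrl 4, Fsh 1, Fsh 3, Fsh 4, Fsh 5 or Fsh 6 (difference from 0.50 to 0.64, adjusted p from 0.0596 to 0.106) and *ctssb1* without Ctrl 1, Ctrl 2, Ctrl 4, Ctrl 5, Fsh 1, Fsh 3, Fsh 5 or Fsh 6 (difference from 0.52 to 0.78, adjusted p from 0.0523 to 0.0982).

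Cytoskeleton and junction genes split, with 8 of 11 clones higher, 2 lower and 1 not called. Dystrophin, *dmd*, which ties the cytoskeleton to the matrix in muscle, ranged from 5.08 to 5.89 on the Ctrl arrays (median 5.73) and from 6.07 to 6.90 on the Fsh arrays (median 6.60). Smoothelin, *smtn*, known from smooth muscle, ranged from 6.06 to 6.80 on the Ctrl arrays (median 6.62) and from 6.89 to 7.81 on the Fsh arrays (median 7.50). Neither overlapped, and both rose, by 0.94 ± 0.15 (adjusted p = 0.000368) and 0.85 ± 0.16 (adjusted p = 0.00229). Desmin, *des*, the intermediate filament of muscle, ranged from 5.87 to 7.07 on the Ctrl arrays (median 6.57) and from 5.56 to 6.03 on the Fsh arrays (median 5.92) and moved down instead, with a difference of -0.70 ± 0.15 (adjusted p = 0.00754) and an overlap through Ctrl 4. Beta spectrin *sptbn1* differed by 0.88 ± 0.17 (adjusted p = 0.00229), the filamin-binding *fblim1* by 0.78 ± 0.16 (adjusted p = 0.00478), and the ezrin-binding scaffold *slc9a3r1* by 0.77 ± 0.15 (adjusted p = 0.00229), all 3 without overlap. The Sertoli cell tight junction protein *cldn11* ranged from 8.52 to 9.77 on the Ctrl arrays (median 9.50) and from 9.73 to 10.15 on the Fsh arrays (median 10.02) and overlapped through Ctrl 6, and its difference of 0.65 ± 0.17 (adjusted p = 0.0326) lost its call without Ctrl 4, Ctrl 5, Fsh 1, Fsh 3, Fsh 4 or Fsh 6 (difference from 0.49 to 0.66, adjusted p from 0.0527 to 0.0703).

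Keratins went in opposite directions. The keratin *krt12* was spotted as 2 clones, of which clone 2 ranged from 8.24 to 9.68 on the Ctrl arrays (median 8.52) and from 9.02 to 9.72 on the Fsh arrays (median 9.57) and clone 1 from 5.44 to 6.55 on the Ctrl arrays (median 6.02) and from 6.11 to 6.92 on the Fsh arrays (median 6.55). Both overlapped. Clone 2 differed by 0.84 ± 0.18 (adjusted p = 0.00752), and by 1.04 (adjusted p = 2.96e-05) without Ctrl 4, its highest Ctrl array, while clone 1 was not called at 0.56 ± 0.18 (adjusted p = 0.104). The simple epithelial keratin *krt18* ranged from 8.85 to 10.34 on the Ctrl arrays (median 9.90) and from 8.41 to 9.18 on the Fsh arrays (median 9.08) and fell, with a difference of -0.87 ± 0.23 (adjusted p = 0.0334). Only Ctrl 4 reached into the range of Fsh, and the call was lost without Ctrl 1, Ctrl 5, Ctrl 6, Fsh 4 or Fsh 6 (difference from -0.77 to -0.83, adjusted p from 0.0729 to 0.101).

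Among clones of protein synthesis, folding and turnover 5 of 9 were higher, 1 was lower and 3 were not called. The RNA-binding protein *rbm47* was spotted as 2 clones, and clone 2 ranged from 6.10 to 8.90 on the Ctrl arrays (median 7.99) and from 8.55 to 9.71 on the Fsh arrays (median 9.07) and clone 1 from 6.08 to 7.31 on the Ctrl arrays (median 7.16) and from 7.35 to 8.51 on the Fsh arrays (median 7.95). Clone 1 did not overlap, clone 2 did, Ctrl 4 was far below the other arrays on both, and the differences were 1.26 ± 0.29 (adjusted p = 0.0123) and 0.95 ± 0.20 (adjusted p = 0.00478). Without Ctrl 4 they were 0.91 (adjusted p = 0.0171) and 0.77 (adjusted p = 0.0099). Calnexin, *canx*, a chaperone of the endoplasmic reticulum, differed by 0.90 ± 0.20 (adjusted p = 0.012). The proteasome core subunit *psma4* was the member called lower. It ranged from 9.33 to 9.94 on the Ctrl arrays (median 9.69) and from 8.66 to 9.26 on the Fsh arrays (median 8.91). The groups did not overlap, and the difference was -0.71 ± 0.16 (adjusted p = 0.0123). The regulatory subunit *psmd1* stood on the other side at 0.56 ± 0.16 (adjusted p = 0.0647), and was called without Ctrl 1 (0.65, adjusted p = 0.0351). Below 0 but not called lay *rpl30*, a ribosomal protein, with -0.32 ± 0.16 (adjusted p = 0.319), and *fcf1*, of ribosomal RNA processing, with -0.62 ± 0.20 (adjusted p = 0.0967), which was called without Fsh 1 (-0.73, adjusted p = 0.0457).

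Cell cycle genes had 4 of 5 differences below 0, with 1 clone called higher, 1 lower and 3 not called. Of all 4565 clones tested only 1975 lay above 0, so that nothing is read from this direction. Cyclin G1, *ccng1*, ranged from 6.58 to 7.33 on the Ctrl arrays (median 6.86) and from 7.23 to 8.29 on the Fsh arrays (median 7.36), with its highest value on Fsh 3. It rose by 0.63 ± 0.16 (adjusted p = 0.0311) and lost its call without Ctrl 1, Ctrl 4 or Fsh 3 (difference from 0.47 to 0.58, adjusted p from 0.0513 to 0.088). The growth inhibitor family member *ing4* ranged from 7.41 to 8.69 on the Ctrl arrays (median 7.79) and from 6.48 to 7.80 on the Fsh arrays (median 6.89). The groups overlapped, the highest Ctrl array was Ctrl 4, and the difference of -0.86 ± 0.21 (adjusted p = 0.0219) lost its call without Ctrl 1, Ctrl 4, Fsh 3 or Fsh 5 (difference from -0.70 to -0.84, adjusted p from 0.0513 to 0.0691). Cyclin E1, *ccne1*, which drives entry into DNA replication, had a difference of -0.60 ± 0.18 (adjusted p = 0.083), -0.77 (adjusted p = 0.00376) without Ctrl 4 and -0.70 (adjusted p = 0.0307) without Fsh 1. The helicase subunit *mcm7* and the centromeric histone *cenpa*, both of dividing cells, stood at -0.37 ± 0.15 (adjusted p = 0.232) and -0.40 ± 0.17 (adjusted p = 0.262).

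Antigen presentation was the group with all its differences below 0, of which 2 of 4 were called. An MHC class II alpha chain clone ranged from 5.11 to 7.27 on the Ctrl arrays (median 6.79) and from 5.32 to 5.73 on the Fsh arrays (median 5.45). The 6 Fsh arrays were close together and low, Ctrl 4 was lower still and Ctrl 1 was near them, and the other 4 Ctrl arrays were well above. The difference of -0.96 ± 0.23 (adjusted p = 0.0185) lost its call without Ctrl 3, Ctrl 5 or Ctrl 6 (difference from -0.79 to -0.89, adjusted p from 0.0525 to 0.056), and was -1.22 (adjusted p = 7.93e-05) without Ctrl 4. The MHC class I heavy chain *onmy-uba* was spotted as 2 clones, of which clone 2 ranged from 6.94 to 7.64 on the Ctrl arrays (median 7.08) and from 5.98 to 6.73 on the Fsh arrays (median 6.53) and clone 1 from 7.07 to 8.71 on the Ctrl arrays (median 8.28) and from 7.17 to 8.16 on the Fsh arrays (median 7.43). Clone 2 did not overlap and fell by the fit, with -0.78 ± 0.17 (adjusted p = 0.00972), and clone 1 overlapped and had -0.63 ± 0.20 (adjusted p = 0.103), or -0.75 (adjusted p = 0.0499) without Fsh 6. The class II beta chain *onmydab* had -0.63 ± 0.18 (adjusted p = 0.0574). Without Ctrl 4, the lowest Ctrl array of 3 of these 4 clones, all 4 were called lower, with -0.85 (adjusted p = 0.00282) for *onmy-uba* clone 1 and -0.79 (adjusted p = 0.00415) for *onmydab*, where 1.23% of all clones were called lower. Leaving out the lowest Ctrl array raises the Ctrl mean of those 3 clones. As the study also chose all 4 for a response to Fsh, nothing is read from this count. In the same tissue the cathepsin S genes, which process antigen in mammals, were on the higher side.

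**Figure D3:**
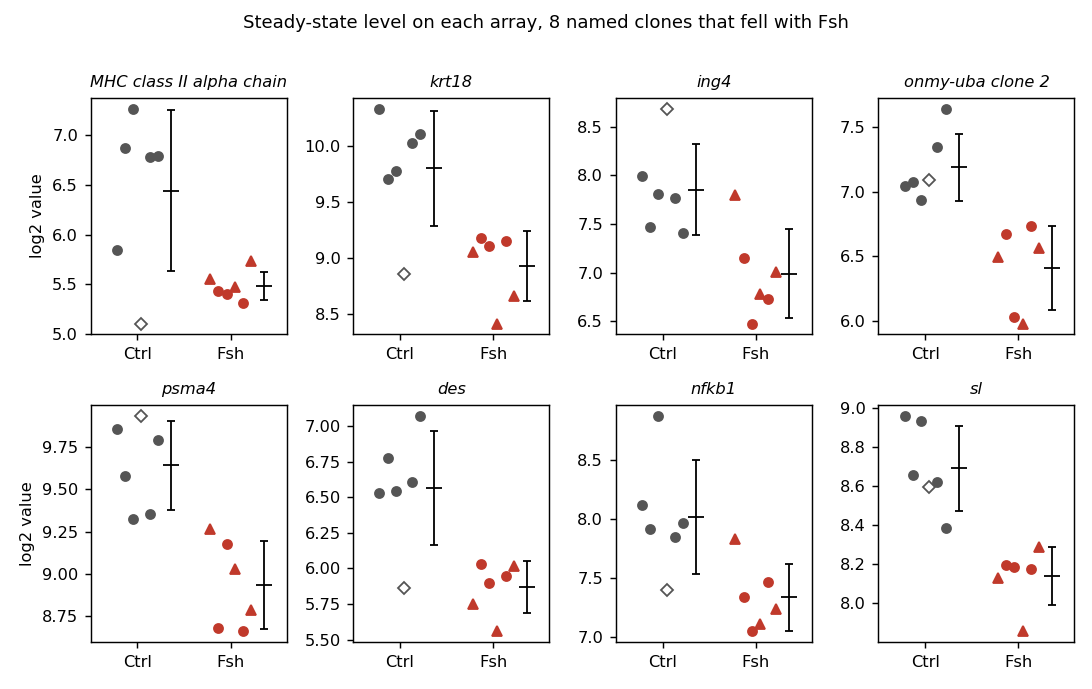
Log2 value on each array for the 8 named clones that fell with Fsh, 1 panel each with its own vertical axis, for 6 Ctrl arrays (grey) and 6 Fsh arrays (red). Triangles are arrays labelled stage III, the open diamond is Ctrl 4, and bars are mean and SD (n = 6). The groups do not overlap for *onmy-uba* clone 2, *psma4* and *sl*, and Ctrl 4 is the lowest Ctrl array in 4 panels and the highest in 2.

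Of 13 clones of other or unknown function, 11 were higher and 2 were not called. The clone named transport-secretion protein 2.2 ranged from 5.50 to 6.52 on the Ctrl arrays (median 6.37) and from 6.95 to 7.51 on the Fsh arrays (median 7.17), with no overlap and a difference of 0.93 ± 0.16 (adjusted p = 0.00059). A clone similar to the receptor tyrosine phosphatase *ptprf* and the clone *n-pac* also did not overlap and differed by 0.90 ± 0.18 (adjusted p = 0.00282) and 0.88 ± 0.17 (adjusted p = 0.00307). A clone annotated both as *glrx* and as *rhobtb3* differed by 0.83 ± 0.14 (adjusted p = 0.000645). The 2 that went the other way were *tmem106a*, with -0.19 ± 0.16 (adjusted p = 0.591), and *pol*, a polyprotein fragment, with -0.49 ± 0.17 (adjusted p = 0.119).

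**Figure D4:**
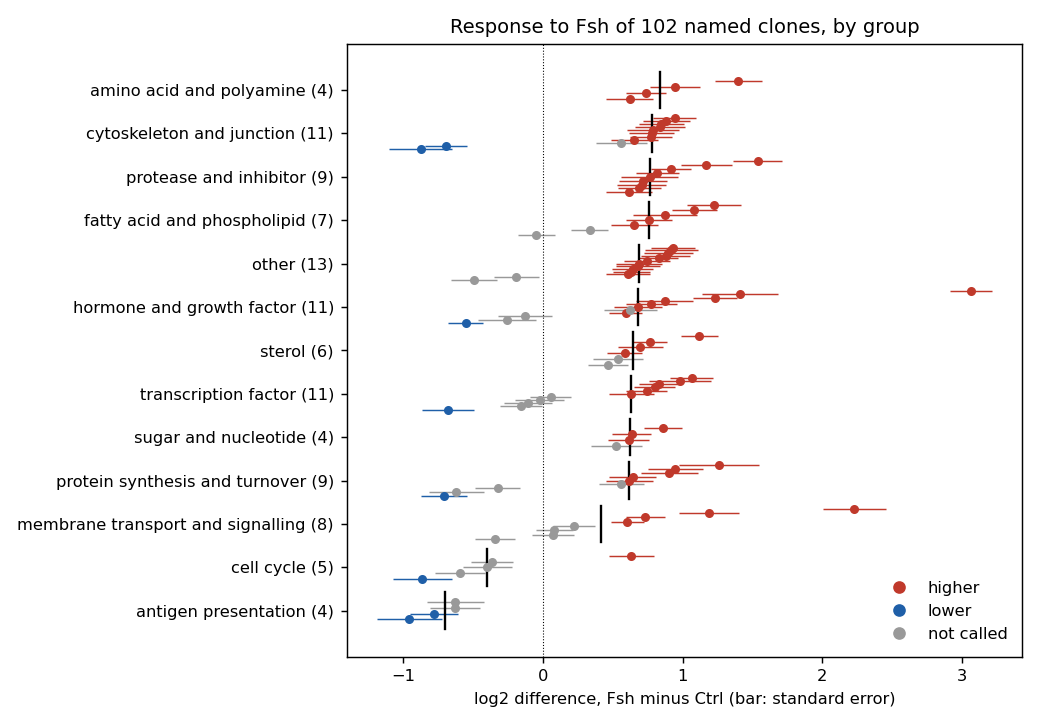
Log2 difference between Fsh and Ctrl (horizontal axis, bars are standard errors of the fit) for the 102 named clones in 13 groups, with the number of clones in brackets and the group median as a black line. Red clones were called higher, blue lower and grey were not called, and only the medians of antigen presentation and cell cycle lie below 0.

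Seen together, 11 of the 13 groups had a median difference above 0, from 0.41 in membrane transport and signalling to 0.84 in amino acid and polyamine metabolism, and 2 had one below 0, at -0.40 in cell cycle and -0.71 in antigen presentation. The median over the 102 named clones was 0.67, and over all 4565 clones it was -0.04. The named clones were chosen for a response to Fsh on these arrays, so that nothing is read from this gap or from the group medians. An annotation drawn from other trout testis samples places some of the named clones in somatic or germ cells. Of 53 annotated to somatic cells, alone or with spermatogonia, 38 were higher, 4 lower and 11 not called (median 0.77). Of 11 annotated to germ cells 7 were higher, *mmp19*, *cbs* and *dmd* among them, 0 were lower and 4 were not called (median 0.64). Of the other 38, 22 were higher and 4 lower (median 0.62). Of the marker lists looked up, 5 of 13 Sertoli cell genes had a named clone (*inha*, *dmrt1* and *cldn11* higher, *krt18* lower, *amh* not called), 1 of 9 Leydig cell genes (*hsd3b1*), 3 of 7 peritubular and muscle genes, 5 of 8 macrophage and antigen presentation genes, and 0 of 11 germ cell and 0 of 4 red blood cell genes, so that the makeup of the explants was not tested.

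Ctrl 4 was low for many of the named clones, and not only for those that rose. It was the lowest Ctrl array for 37 of the 67 named clones called higher and for 4 of the 8 called lower. Over all 102 named clones, called or not, it was lowest for 56, and over all clones tested for 32.0%. Its mean over the 82 clones called higher lay at -0.37 relative to the mean of the Ctrl group, while the other Ctrl arrays lay between -0.07 and 0.19 and the Fsh arrays between 0.77 and 0.97. For the 17 clones called lower the Fsh arrays lay between -0.86 and -0.50, Ctrl 4 at -0.16 and the other Ctrl arrays between -0.06 and 0.10. Both sets of clones were called on these same arrays, and a low value on Ctrl 4 itself favours a call of higher. Nothing is therefore read from these gaps, or from the counts of named clones without overlap below. Without Ctrl 4 the median of the 67 named clones fell from 0.79 to 0.72 and that of the 8 went from -0.74 to -0.80, 59 of the 67 and 7 of the 8 kept their call, and 3 others were called. All 6 Fsh arrays lay above all Ctrl arrays for 41 of the 67 and below for 3 of the 8. Against the 5 other Ctrl arrays these counts were 42 and 7, where 1.2% and 1.25% of all clones did so. The SD between arrays over the 75 named clones called had a median of 0.37 on Ctrl and 0.25 on Fsh, and 0.25 on Ctrl without Ctrl 4. What sets Ctrl 4 apart was not tested.

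Stage as labelled moves with Fsh, since no Ctrl array is given as stage III. In a fit with a mean for each treatment and stage, the 3 Fsh arrays of stage I-II against Ctrl, all of that stage, gave 60 clones higher and 10 lower (1.53% of those tested). This fit, whose spread comes from all 24 cultured arrays, called 50 of the 82 and 3 of the 17. On the arrays labelled stage I-II alone, 23 of the 82 and 0 of the 17 kept their call. With stage as a covariate 60 and 5 kept it. All 82 and all 17 kept their sign in both the stage I-II and the stage III Fsh arrays. These same arrays had chosen the clones, so that nothing is read from this or from the medians and differences that follow. The median of the 82 was 0.80 on the stage I-II and 0.75 on the stage III Fsh arrays, and that of the 17 was -0.62 and -0.66. For *vt1* the differences from Ctrl were 2.96 and 3.17, for *slc26a4* 2.14 and 2.32, and for *inha* 1.49 and 1.33. The contrast of stage III with stage I-II arrays of Fsh set 3 arrays against 3 and was less precise. Its standard error for *vt1* was 0.21, where Fsh minus Ctrl had 0.15. An absence of calls there does not show that labelled stage has no effect. Between these arrays, 0 clones were called (0%), with 299 at an unadjusted p under 0.05 (6.55%), 1 of them among the 75 named clones called. That clone, of a toxin-1-like protein, had 0.86 on stage I-II and 0.36 on stage III. Over all Fsh arrays its difference was 0.61 ± 0.16 (adjusted p = 0.0314), and the call was lost without Ctrl 1, Ctrl 3, Ctrl 5, Ctrl 6, Fsh 2, Fsh 3 or Fsh 5 (difference from 0.52 to 0.61, adjusted p from 0.056 to 0.0923). Without Fsh 4, Fsh 5 or Fsh 6 this contrast called 1, 1 and 5 clones. Without Fsh 3 or Fsh 5 the stage I-II arrays of Fsh against Ctrl gave 25 and 37 clones in all instead of 70.

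The 12 arrays with trilostane, an inhibitor of 3beta-hydroxysteroid dehydrogenase, share no sample with Ctrl and Fsh, and Fsh+Tri minus Tri gives the response to Fsh under another condition. Both contrasts rest on wells of the same pool and on a shared spread fitted over all 24 cultured arrays. Their p-values are therefore not independent, and the counts that follow are a description and not a separate check. Of the 82 clones called higher, 77 had a difference above 0 there, with a median of 0.36, and 46 an unadjusted p under 0.05 in that direction, where 6.75% of all clones had one and 54.7% were above 0. At an adjusted p under 0.05 there, 8 of the 82 were higher (0.329% of all clones). Of the 17 called lower, 12 were below 0, with a median of -0.15, and 5 had an unadjusted p under 0.05, where 4.56% of all clones had one. The named clones were chosen partly on these arrays. Among the clones without a name, 12 of 15 called higher were above 0 and 3 had an unadjusted p under 0.05 there, and 5 of 9 called lower were below 0 and 1 had one. Side by side, *tac1* had 1.23 ± 0.16 without and 0.99 ± 0.16 with trilostane, *tfpi2* 0.92 ± 0.14 and 1.20 ± 0.14, *des* -0.70 ± 0.15 and -0.71 ± 0.15, whereas *vt1* had 3.06 ± 0.15 and 0.59 ± 0.15, and *slc26a4* 2.23 ± 0.22 and 0.03 ± 0.22. The mean of *slc26a4* was 7.27 on Ctrl, but 5.59 on Tri and 5.62 on Fsh+Tri. The latter 2 lie below the median of 6.42 used in the filter on level.

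**Figure D5:**
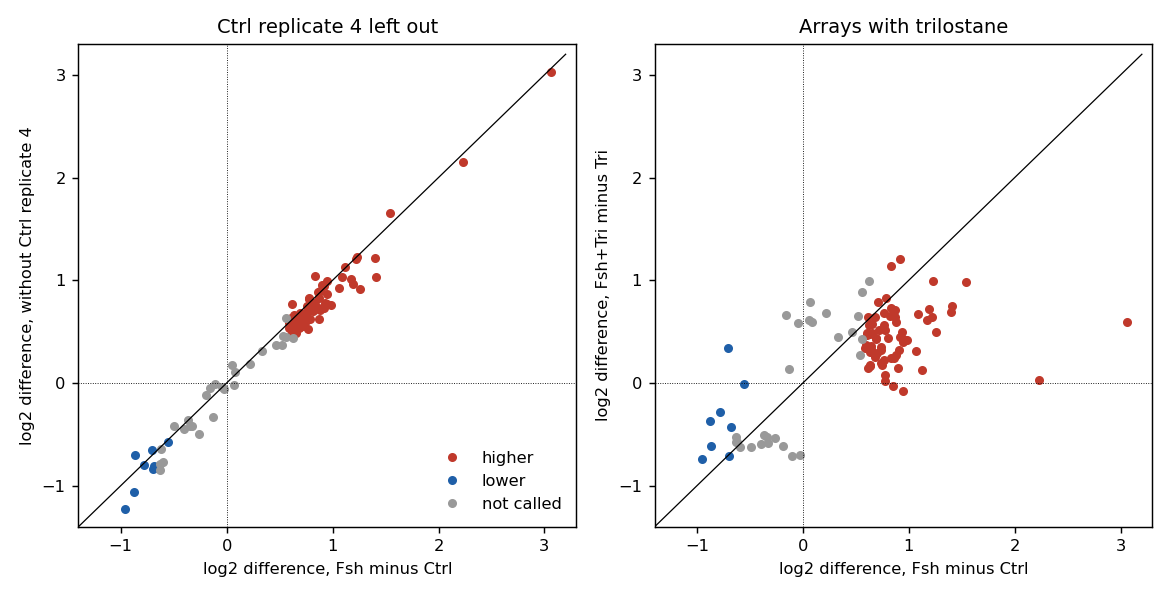
Log2 difference of the 102 named clones between Fsh and Ctrl (horizontal axis) against the same difference without Ctrl 4 (left, vertical axis) and against Fsh+Tri minus Tri (right, vertical axis). Colours give the call as in the plot by group and the line marks equal values. On the left the points follow the line, and on the right *vt1* at 0.59 and *slc26a4* at 0.03 lie far below it.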

How the data were processed

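The authors deposited log2 values: the signal of each cDNA spot over that of an oligonucleotide to the vector, rescaled, then quantile normalized. The deposited spot intensity of each array, before that division, served as an alternative. Over the 102 named clones, matched by spot number, its r with the deposited values was 0.982 to 0.997 per array. The other clones were not compared in this way. Columns that match no sample of the series number 0. The arrays of day 0 match samples but entered no fit.

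Rows of water and of a vector (192) were dropped. Of 9024 clones, 8244 had values for 80% or more of the 24 arrays of cultured explants, and 4565 of these reached the median of those kept in the mean of at least 1 treatment. A mean per treatment was fitted with limma (version 3.58.1, R version 4.3.3, functions lmFit then eBayes), and p-values were adjusted over all 4565 by Benjamini-Hochberg, with a threshold of 0.05. Precision rests on the number of arrays. In data simulated on 4565 clones for Fsh minus Ctrl, 54 of 100 clones changed 1.5-fold and 92 of 100 changed 2-fold were recovered, and 12 of 158 calls were unchanged clones. The simulated noise was normal, independent between clones and of equal spread on every array. No simulated array stood apart as Ctrl 4 does, so that these rates need not hold for the data.

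Names are those of the study's supplementary list for 102 clones, plus *rps15*. The values of 1 named clone are not reported here. The members, groups and lists were chosen with earlier results of these data known. Values are given for the 12 largest rises and 8 falls, the largest and up to 4 more members per group, those going the other way, genes with 2 clones, the named peptide hormones, and up to 2 unnamed clones in each direction. Alternatives covered normalization, filters, array weights, stage, image software, replicate block, thresholds and each array left out. Plots used matplotlib (3.10.9) under Python 3.11.15.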

Additional observations from a re-analysis of the deposited data

Results flagged for a closer look

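In groups of 6 arrays, the highest or lowest array was set against the others by the gap to its neighbour as a share of the group's range (Dixon's critical value at 95%), which chance alone exceeds in about 1 in 20 groups. Over the named clones and *rps15*, 22 of 206 such tests passed it, 11 of them with Ctrl 4 as the lowest array. On the first principal component Ctrl 4 stood apart at -36.0.

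Ctrl 4 was far below the other Ctrl arrays for *cth* (6.31), *onmy-uba* clone 1 (7.07), *inha* (7.98), *hgfa* (7.12), *lrrc8* clone 2 (4.85), transport-secretion protein 2.2 (5.50), uncharacterised protein 3 (9.35), *ctl1* (9.75), *fdps* (7.96), *pgd* (8.73) and *cebpd* clone 1 (6.05), all as log2 values. It was far above them for *krt12* clone 2 (9.68). Other Ctrl arrays stood apart for *gpd1* (Ctrl 5, 7.44), the toxin-1-like clone (Ctrl 2, 6.36) and the 14 kDa apolipoprotein (Ctrl 3, 6.41).

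Among Fsh arrays, Fsh 4 was far below the others for *cbs* (7.01), *mcm7* (6.47) and *sl* (7.86), and far above them for *plg* (8.10). Fsh 3 was far above for *ccng1* (8.29), Fsh 2 far below for *krt12* clone 2 (9.02), and Fsh 5 far below for *fosl2* (6.70).

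The response to Fsh differed between cultures with and without trilostane, by a limma test of the difference itself, for 3 named clones. The share over all clones tested is not given here for this contrast. As the study chose the named clones for a response to Fsh on these arrays, nothing is read from this count. Fsh+Tri minus Tri, less Fsh minus Ctrl, was -2.47 for *vt1* (adjusted p = 6.22e-09), -2.20 for *slc26a4* (adjusted p = 0.000226) and -0.99 for the 14 kDa apolipoprotein (adjusted p = 0.0196). The mean of *slc26a4* was lower on Tri (5.59) than on Ctrl (7.27).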

How the results depend on the processing

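Fsh minus Ctrl called 82 clones higher and 17 lower. With the first number for higher and the second for lower, counts that moved by over 1.5 times were 8 lower with no filter on level, 35 and 2 on the Ctrl and Fsh arrays alone, 41 lower with array weights, 9 lower with stage as a covariate, 24 and 2 on arrays labelled stage I-II alone, 41 and 2 at an adjusted p under 0.01, and 11 lower with a fold change of at least 1.5 as well. Leaving out 1 array gave 59 to 91 higher and 8 to 56 lower, with 8 without Ctrl 1, 32 without Fsh 1 and 56 without Ctrl 4. In alternatives added after seeing the data, leaving out Ctrl 4 gave 56 lower with the filter repeated, 40 and 28 on the Ctrl and Fsh arrays alone, and 62 lower with array weights. The share of higher among calls went from 82.8% to 54.8% without Ctrl 4 and 65.0% with array weights. Stage I-II Fsh arrays against Ctrl called 70 clones, 30 with no filter on level and 25 to 74 with 1 Fsh array left out. Stage III against stage I-II Fsh arrays called 0, and 0 to 5 with 1 left out. The causes were not tested.

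Of the 75 named clones called, 0 changed direction, 20 kept their call in all 27 settings, 23 lost it without at least 1 array, 52 on arrays labelled stage I-II alone, and 9 on spot intensity without the division. Among these 9 were *gapdhs* (0.39, adjusted p = 0.183), *fasn* clone 2 (0.44, adjusted p = 0.0937), *krt18* (-0.80, adjusted p = 0.0852), *nfkb1* (-0.50, adjusted p = 0.0533), *odc1* (0.52, adjusted p = 0.0674) and *ctssb1* (0.73, adjusted p = 0.0599). On the Ctrl and Fsh arrays alone, 35 of the 82 clones called higher and 2 of the 17 called lower kept their call. Named clones that lost it there included *des*, *sl*, *krt12* clone 2, *timp2*, *fdps*, *canx*, *it1* and *rbm47* clone 2. Clones near 0 changed sign. For *e2f4* the difference was -0.037 on spot intensity, -0.023 with stage as a covariate, and -0.031 to 0.18 with 1 array left out. For *gpam* it was 0.019 with array weights, 0.022 with array weights and without Ctrl 4, and -0.13 to 0.012 with 1 array left out. For *slc30a1* it was -0.015 without Ctrl 4, also with the filter repeated or on the Ctrl and Fsh arrays alone, and -0.023 to 0.14 with 1 array left out. That range was -0.34 to 0.016 for *inhba*, -0.12 to 0.069 for *purg* and -0.020 to 0.14 for *rps15*.

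Deviations from the group mean on same-numbered Ctrl and Fsh arrays had an r from -0.15 to 0.06. Arrays of different numbers were not compared in this way, so whether replicate number links the wells was not settled. With the replicate block 74 clones were higher and 12 lower, and 6 named clones lost their call. How far array number and Ctrl 4 each limit the precision was not tested.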
